A study of Mus musculus with 6 samples.

Results

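The Mu-class glutathione S-transferases Gstm1 to Gstm7 were followed in the liver of male mice fed soy. All non-control probes whose RefSeq accession belongs to a Gstm gene were taken, without regard to their values. This gave 10 probes for the 7 genes, of 56605 probes and 22911 genes with a symbol on the array. Gstm1, Gstm5 and Gstm6 had 2 probes each and the other 4 genes had 1, and the brighter probe of a pair is called probe 1.

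Each of 6 livers was hybridised with Cy3 dye to its own 1-colour Agilent array. The control group was 3 male mice kept on granulated regular chow alone (100% regular food), and the soy-fed group was 3 male mice given a granulated mixture of 75% regular food and 25% soy bean. Mice of both groups were 12 weeks old at the start and ate their diet for 28 days. The strain is not given in the sources used here, the labels name no genetic change in either group, and all tissue came from the right hepatic lobe, so the RNA is that of every cell type in the piece. In such bulk tissue, fewer cells of a type and less RNA per cell cannot be told apart.

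Mu-class transferases are cytosolic enzymes that work as dimers and join glutathione to electrophiles such as epoxides and unsaturated carbonyls, which makes these compounds more soluble and ready for export. The liver is a main site of this conjugation, and several family members there are known to be inducible, through the transcription factor NRF2 and the antioxidant response element it binds, and through the xenobiotic receptors CAR and PXR. The 7 genes lie side by side on mouse chromosome 3, in the order Gstm5, Gstm7, Gstm6, Gstm3, Gstm2, Gstm1 and Gstm4 in the RefSeq annotation of GRCm38.p6, with pseudogenes between some of them. Gstm5 is read from the plus strand and the other 6 genes from the minus strand.

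In the soy-fed livers, Gstm1 (both probes), Gstm4 and Gstm6 (probe 2) were up-regulated between 1.93-fold and 2.29-fold. With the slide as a block in the limma model none of these 4 probes was called, with an adjusted p of 0.184 and 0.126 for Gstm1 probes 1 and 2, 0.0984 for Gstm4 and 0.0946 for Gstm6 probe 2, while their log2 changes were 0.97, 1.20, 1.23 and 1.09. The soy-fed mean was lower on 4 probes, none of them called, those of Gstm2 and Gstm7 and probe 1 of Gstm5 and of Gstm6. A probe was called when its adjusted p (limma, Benjamini-Hochberg over all 56605 probes) was under 0.05 and its fold change over 1.5 or under 0.66. By this rule 4 of 10 Gstm probes were called higher and 0 lower, beside 0.208% of all probes called higher, 0.141% called lower and 0.35% in either direction, and 0.384% called higher of the probes that stood well above background in all 6 livers. Called probes belonged to 3 of 7 Gstm genes, whereas 0.532% of all genes were called on some probe. At an unadjusted limma p under 0.05, 6 Gstm probes were higher and 3 lower, beside 6493 of all 56605 probes in either direction. The counts over the whole array were 118 probes higher and 80 lower, a share of 59.6% higher, which became 90.8% when the scanner's processed signal was used and 67.6% with a 75th percentile shift. On 8 of 10 Gstm probes the 3 soy-fed values did not overlap the 3 control values, against 18% of all probes and 23.8% of those well above background on all 6 arrays; 6 of the 8 were higher, against 7.75% of all probes and 11.7% of the bright ones. The median log2 change was 0.63 over the 10 probes, -0.05 over the brightest probe of each Gstm gene and -0.01 over all probes. All 10 probes were well above background on every array, with 1 spot each, none saturated and none marked as an outlier. The groups did differ in how many spots stood well above background, at 37010, 36366 and 38163 in control livers 1 to 3 but 31308, 31988 and 32498 in soy-fed livers 1 to 3. The part of this difference in the results was not tested.

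**Figure D1:**
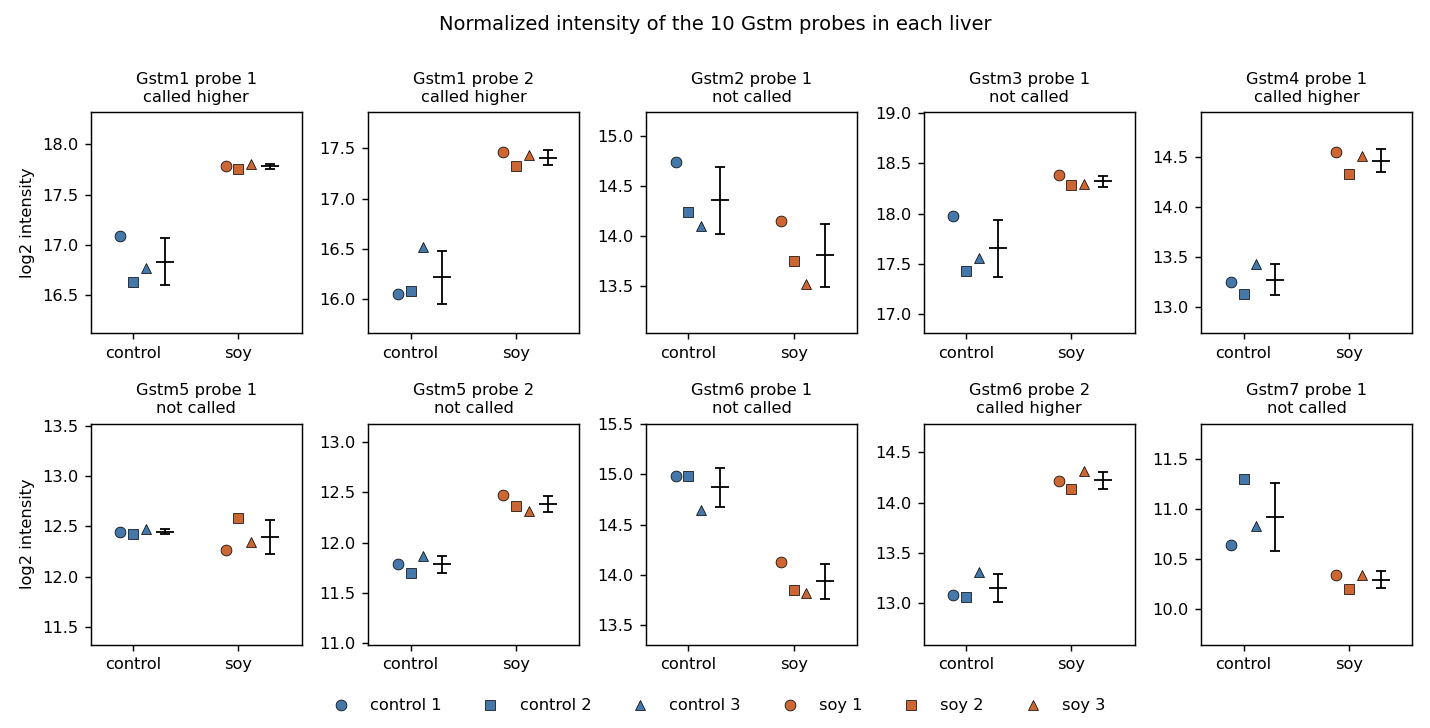
Normalized log2 intensity of the 10 Gstm probes in each of the 6 livers (1 panel a probe, vertical axis in log2 units with its own range in every panel; bars show mean and SD of 3 livers). The soy-fed livers lie above all control livers on both Gstm1 probes, Gstm3, Gstm4 and probe 2 of Gstm5 and Gstm6, and below them on probe 1 of Gstm6 and on Gstm7.

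Gstm1 encodes the best known of the inducible Mu-class enzymes of mouse liver. On Gstm1 probe 1 the normalized log2 intensity was 17.09, 16.63 and 16.77 in control livers 1 to 3 and 17.79, 17.75 and 17.80 in soy-fed livers 1 to 3. The soy-fed livers were all high and within 0.051 of each other, whereas the controls spread over 0.456. The means were 16.83 ± 0.23 and 17.78 ± 0.03 (SD, n = 3 each), a log2 change of 0.95 (SE 0.13, fold change 1.93, limma adjusted p = 0.0405). Probe 2 gave 16.05, 16.08 and 16.52 in the control livers and 17.47, 17.32 and 17.44 in the soy-fed livers. Its log2 change was 1.20 (SE 0.15, fold change 2.29, limma adjusted p = 0.0286), and the groups were again apart. The arrays lay on 3 slides, and within slide 1 (control 1, control 2 and soy 1) and slide 3 (control 3 and soy 3) the log2 difference was 0.93 and 1.04 on probe 1, and 1.41 and 0.92 on probe 2. Slide 2 held soy 2 only. Probe 1 stayed under the threshold without control 1 (adjusted p = 0.0349) and lost its call without control 2 (0.123), control 3 (0.0923), soy 1 (0.12), soy 2 (0.139) or soy 3 (0.144). Probe 2 stayed under it without control 3 (adjusted p = 0.0218) and lost its call without control 1 (0.0759), control 2 (0.102), soy 1 (0.0945), soy 2 (0.106) or soy 3 (0.116), by the same limma test. Probe 1 also lost its call with a 75th percentile shift (adjusted p = 0.0543), and both probes lost it with a normexp offset of 16 (0.0929 and 0.0618). The log2 change was 0.905 on probe 1 with the shift, and 0.953 and 1.195 on probes 1 and 2 with that offset. With a liver left out it ran from 0.854 to 1.082 on probe 1 and from 1.111 to 1.348 on probe 2.

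Gstm4, the outermost gene of the cluster next to Gstm1, had the lowest adjusted p of the family. Its log2 intensity was 13.25, 13.13 and 13.44 in the control livers and 14.55, 14.33 and 14.50 in the soy-fed livers. The lowest soy-fed liver was well clear of the highest control. The means were 13.27 ± 0.15 and 14.46 ± 0.12 (SD, n = 3 each), a log2 change of 1.19 (SE 0.12, fold change 2.28, limma adjusted p = 0.0164). Within slides 1 and 3 the log2 difference was 1.36 and 1.07. Without control 3 the limma adjusted p was 0.0257. Without control 1, control 2, soy 1, soy 2 or soy 3 it was 0.054, 0.0538, 0.0621, 0.0634 or 0.0728, no longer under the threshold. The log2 change ran from 1.117 to 1.269 over these fits.

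Gstm6 lies between Gstm7 and Gstm3, and its probes went in opposite directions. On Gstm6 probe 2 the log2 intensity was 13.08, 13.06 and 13.31 in the control livers and 14.22, 14.14 and 14.31 in the soy-fed livers, all above the controls. The log2 change was 1.07 (SE 0.11, fold change 2.1, limma adjusted p = 0.0169), a called rise. On probe 1 the log2 intensity was 14.98, 14.99 and 14.65 in the control livers and 14.13, 13.85 and 13.82 in the soy-fed livers, all below the controls. Here the log2 change was -0.94 (SE 0.14, fold change 0.521, limma adjusted p = 0.0514), just outside the threshold. Within slides 1 and 3 the log2 difference was 1.15 and 1.00 on probe 2 and -0.85 and -0.83 on probe 1. Probe 2 kept a limma adjusted p under the threshold without control 3 (0.0257). It lost its call without control 1 (0.0545), control 2 (0.0704), soy 1 (0.0638), soy 2 (0.0695) or soy 3 (0.0728). The log2 change of probe 2 ran from 1.029 to 1.151 over these fits. Probe 1 became a call of lower without control 3 (0.049). Probe 1 was also called lower with trend and robust eBayes settings (adjusted p = 0.0306), with only probes well above background tested (0.0269) and with the processed signal (0.0192). Over the whole array these settings called 119, 215 and 1214 probes lower, against 80 in the main fit. Both probes carry the same RefSeq accession, and 11 RefSeq transcripts are listed for Gstm6 against 2 for Gstm1 and 6 for Gstm4. Which of these transcripts each probe reads, and how far a probe also binds the transcripts of another Mu-class gene, was not tested, since the probe sequences were not used here.

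**Figure D2:**
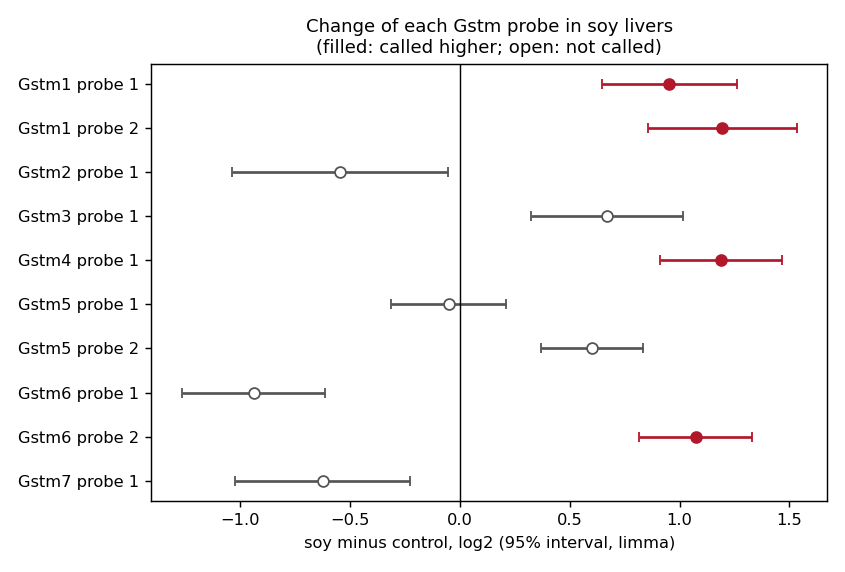
Log2 change of each Gstm probe, soy-fed minus control (horizontal axis, log2 units; points are limma estimates over 3 against 3 livers, bars their 95% confidence intervals; filled points were called higher, open points were not called). The 4 called probes lie between 0.95 and 1.20, and the 2 probes of Gstm6 lie on opposite sides of 0.

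Gstm3, another Mu-class gene of the cluster, was not called, although its groups were apart. Its log2 intensity was 17.97, 17.43 and 17.56 in the control livers and 18.39, 18.29 and 18.29 in the soy-fed livers. The log2 change was 0.67 (SE 0.15, fold change 1.59, limma adjusted p = 0.14; 95% interval 0.32 to 1.02). It was called with the processed signal alone (adjusted p = 0.0172), a setting that called 11924 probes higher over the whole array. The highest control was control 1, which was also the highest control on Gstm1 probe 1. Within slides 1 and 3 the log2 difference was 0.69 and 0.74.

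Gstm2 and Gstm7 had lower means in the soy-fed livers and were not called. The log2 intensity of Gstm2 was 14.74, 14.24 and 14.10 in the control livers and 14.15, 13.76 and 13.53 in the soy-fed livers. The groups overlapped, as soy 1 lay above control 3, and the log2 change was -0.55 (SE 0.21, limma adjusted p = 0.382; 95% interval -1.04 to -0.06). It depended on single livers, at -0.359 without control 1 and -0.717 without soy 1. Gstm7, whose gene lies next to Gstm6, read 10.64, 11.30 and 10.83 in the control livers and 10.35, 10.20 and 10.35 in the soy-fed livers. All soy-fed livers were below the controls, with a log2 change of -0.63 (SE 0.17, fold change 0.648, limma adjusted p = 0.212; 95% interval -1.02 to -0.23). Within slides 1 and 3 the log2 difference was -0.34 and -0.57 for Gstm2 and -0.63 and -0.48 for Gstm7.

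Gstm5, which lies at the other end of the cluster and is known for its expression in brain and testis, also had probes that differed. On probe 1 the log2 intensity was 12.45, 12.42 and 12.48 in the control livers and 12.26, 12.59 and 12.34 in the soy-fed livers. The soy-fed values lay on both sides of the controls, and the log2 change was -0.05 (SE 0.11, limma adjusted p = 0.899; 95% interval -0.31 to 0.21); without soy 1 it was 0.02. On probe 2 the log2 intensity was 11.79, 11.70 and 11.86 in the control livers and 12.47, 12.36 and 12.31 in the soy-fed livers. All soy-fed livers were higher there, with a log2 change of 0.60 (SE 0.10, fold change 1.52, limma adjusted p = 0.0675), not a call. Probe 2 was called with only probes well above background tested (0.0389) and with the processed signal (0.00935). Over the whole array these settings called 282 and 11924 probes higher, against 118 in the main fit. Within slides 1 and 3 the log2 difference was -0.17 and -0.13 on probe 1 and 0.73 and 0.45 on probe 2.

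The probes of a gene were compared within each array, a comparison chosen after the values had been seen. For Gstm6, probe 2 minus probe 1 was -1.90, -1.93 and -1.34 log2 units in the control livers and 0.09, 0.29 and 0.49 in the soy-fed livers, a shift of 2.01 with no overlap. For Gstm5 the difference was -0.66, -0.72 and -0.61 in the control livers and 0.21, -0.22 and -0.03 in the soy-fed livers, a shift of 0.65 with no overlap. For Gstm1 the groups overlapped and the shift was 0.24. An exact two-sided permutation test gave p = 0.1 for Gstm6 and Gstm5, the smallest that 3 against 3 livers allow, and p = 0.4 for Gstm1 (Benjamini-Hochberg adjusted over the 3 genes, 0.15, 0.15 and 0.4). With the mean of both probes in place of the brightest, the log2 change became 0.07 for Gstm6 and 0.27 for Gstm5.

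**Figure D3:**
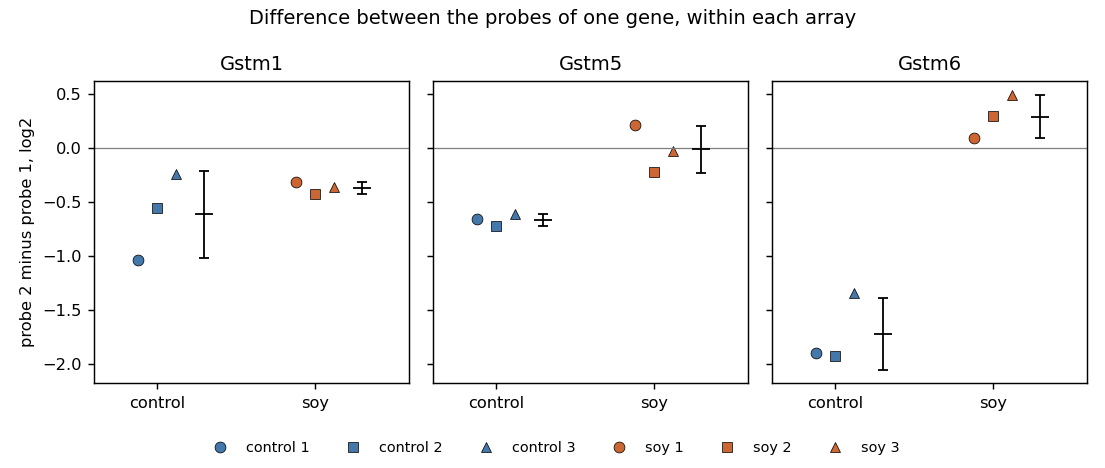
Difference between the 2 probes of Gstm1, Gstm5 and Gstm6 within each array (probe 2 minus probe 1, log2 units; points are livers, bars mean and SD of 3). The soy-fed livers lie above the controls for Gstm5 and Gstm6, with a shift of 2.01 for Gstm6, and among them for Gstm1.

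Gstm1 was also set against each other member within the array, on the brightest probes, to ask whether members changed unequally. The difference between Gstm1 and Gstm6 was 2.10, 1.64 and 2.12 log2 units in the control livers and 3.66, 3.91 and 3.98 in the soy-fed livers, a shift of 1.89. The shift was 1.58 against Gstm7, 1.5 against Gstm2, 1.00 against Gstm5 and 0.28 against Gstm3, each with no overlap between the groups. Against Gstm4 the shift was -0.24 and the groups overlapped, at 3.84, 3.50 and 3.33 in the control livers and 3.24, 3.42 and 3.30 in the soy-fed livers. The shift against Gstm4 was -0.096 without control 1 and -0.348 without control 3. The exact two-sided permutation p was 0.1 for 5 of 6 pairs and 0.2 for Gstm4, or 0.12 and 0.2 after Benjamini-Hochberg adjustment over the 6 pairs, so no pair passed the threshold and none could. These values depend on the probe: with probe 2 of Gstm6 the shift was -0.12 and the groups overlapped (exact p = 0.8), and with probe 2 of Gstm5 it was 0.35 (exact p = 0.1). With probe 2 of Gstm1 the shifts ran from 0.01 against Gstm4 (groups overlapping) to 2.14 against Gstm6 probe 1. The other probes were tried after the values had been seen.

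Within the groups, the deviations of some pairs of members ran alike and those of other pairs did not. How often unrelated probes reach such values over 6 arrays was not tested. The correlation of deviations from the group means, given as a description over 6 arrays that share their normalization, was 0.98 between Gstm1 probe 1 and Gstm3, and 0.91 between Gstm1 probe 2 and Gstm6 probe 2. It was 0.86 between Gstm1 probe 2 and Gstm4, and 0.87 between Gstm4 and Gstm6 probe 2. The same measure was 0.20 between Gstm1 probe 1 and Gstm4, -0.08 between Gstm1 probe 1 and Gstm6 probe 2, and -0.28 between Gstm1 probe 2 and Gstm3. The 2 Gstm1 probes had a value of -0.24, and Gstm1 probe 1 and Gstm7 one of -0.83. Among 13491 other genes whose brightest probe was well above background on all 6 arrays, the 5 with the highest Pearson r with Gstm1 probe 1 were Acadvl (0.997), Dus1l (0.996), Adora1 (0.990), Pgp (0.989) and Usp5 (0.989), and 145 genes were above 0.95. Acadvl encodes a very long chain acyl-CoA dehydrogenase of fatty acid oxidation, and Adora1 an adenosine receptor. Their r after removing the group means was 0.98 for Acadvl, 0.95 for Dus1l, 0.91 for Adora1, 0.88 for Pgp and 0.87 for Usp5. The 5 were picked by r over the same arrays, so high values here follow in part from that choice. Of the 5, Adora1 was called, with a log2 change of 1.5 (limma adjusted p = 0.0416), and the other 4 had log2 changes between 0.21 and 0.46.

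The sequences before the start sites are shown for Gstm1 and Gstm4, the genes called on every probe, and were searched in all members for the core of the antioxidant response element, which NRF2 binds. The core was taken as TGAC, any 3 bases, then GC, on both strands of the 250 bases before each start in RefSeq's annotation of GRCm38.p6; all 7 genes matched, with 12 starts. The windows of Gstm1, at the more upstream of its 2 starts (chr3:108017974-108018223, minus strand, GC content 57.6%), and of Gstm4 (chr3:108044860-108045109, minus strand, GC content 59.6%) were as follows.
Gstm1: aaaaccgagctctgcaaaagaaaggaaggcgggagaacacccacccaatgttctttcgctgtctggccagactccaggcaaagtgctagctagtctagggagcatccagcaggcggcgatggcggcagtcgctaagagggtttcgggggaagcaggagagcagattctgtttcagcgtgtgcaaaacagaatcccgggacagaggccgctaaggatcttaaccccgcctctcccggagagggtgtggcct
Gstm4: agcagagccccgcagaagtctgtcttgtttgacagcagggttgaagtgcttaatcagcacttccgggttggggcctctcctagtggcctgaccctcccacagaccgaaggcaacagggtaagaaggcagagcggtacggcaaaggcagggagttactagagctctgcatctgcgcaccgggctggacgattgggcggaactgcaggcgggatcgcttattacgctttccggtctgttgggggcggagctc
These letters were not in either window, nor in any window of Gstm2, Gstm3 or Gstm6. They were found once before Gstm5, 33 bases from the start, and once before the second start of Gstm7, 120 bases from it, both on the strand of the gene. The Gstm7 match lies downstream of that gene's first start, so it is not before the gene as read from there. The matches, with the 9 bases of the core in capitals and 10 bases on either side, were as follows.
Gstm5: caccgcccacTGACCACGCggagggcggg
Gstm7: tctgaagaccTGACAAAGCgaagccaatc
Of all 32851 promoter windows in the same table, 10.2% held the core. A match describes letters only, not a site in use.

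The genes that act with the Mu class were read from 7 lists, with 85 of 88 listed genes on the array. Counts at an unadjusted p, given for lists without a call, are on the brightest probe of each gene and stand beside the 6493 of 56605 probes under it on the whole array. Of the 85 listed genes on the array, 6 were called higher on some probe and 0 lower, beside 0.34% of all genes called higher and 0.192% lower. The median log2 change over the brightest probe of all genes was -0.01. Among the other cytosolic transferases, 1 of 15 was called, the alpha-class gene Gm10639. Its log2 intensity was 12.59, 11.78 and 12.62 in the control livers and 14.95, 14.11 and 14.66 in the soy-fed livers, a log2 change of 2.24 (SE 0.28, limma adjusted p = 0.0313). The alpha-class gene Gsta2, named after its value was seen, had a change of 2.30 (SE 0.38, limma adjusted p = 0.0652) and was not called. The brightest probe had a higher soy-fed mean for 10 of the 15 genes, beside 26924 of all 56605 probes, with a median log2 change of 0.16. Of 7 mitochondrial and membrane-bound transferases 0 were called by limma, with 1 higher at an unadjusted p under 0.05; the largest changes were 0.68 for Mgst3 (adjusted p = 0.159) and 0.37 for Gstk1 (adjusted p = 0.46), and the median was 0.12.

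Of 10 genes of glutathione synthesis and recycling 0 were called by limma, with 5 higher and 2 lower at an unadjusted p under 0.05. Gclc, the catalytic subunit of the rate-limiting enzyme of glutathione synthesis, read 14.02, 13.78 and 14.14 in the control livers and 15.15, 15.18 and 15.94 in the soy-fed livers, all above the controls. Its log2 change was 1.44 (SE 0.22, limma adjusted p = 0.0531), and that of G6pdx, which supplies NADPH, was -0.74 (adjusted p = 0.283). The median of these 10 genes was 0.25. In export of conjugates and their processing to mercapturates, 1 of 14 genes was called and the median was 0.06. This was Abcc3, a pump of the basolateral hepatocyte membrane that exports organic anions and conjugates, with 14.08, 14.05 and 14.01 in the control livers and 14.91, 14.78 and 14.93 in the soy-fed livers (log2 change 0.83, SE 0.10, limma adjusted p = 0.0242). The dimmer probe of Abcc3 gave 0.74 (limma adjusted p = 0.0819) and was not called.

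The list of other NRF2 targets had the highest median of the 7, at 0.70, with a higher soy-fed mean for 14 of 16 genes and 3 called. Ephx1, the microsomal epoxide hydrolase, changed by 1.22 log2 units (SE 0.18, limma adjusted p = 0.0473). Ugdh, which makes UDP-glucuronic acid for glucuronidation, changed by 1.05 (SE 0.15, adjusted p = 0.0405), and Tkt, the transketolase of the pentose phosphate pathway, by 0.78 (SE 0.10, adjusted p = 0.0369). The dimmer probe of Ugdh gave 1.21 (limma adjusted p = 0.0681) and was not called. On all 3 genes the soy-fed livers lay above the controls, as on 7.75% of all probes. Hmox1 of the same list, named after its value was seen, went the other way. All its soy-fed livers lay below the controls (log2 change -0.34, limma adjusted p = 0.388), and it was not called. Of 11 regulators, with a median of 0.05, 1 was called, the receptor gene Nr1i3 (CAR), on its dimmer probe (log2 change 0.87, SE 0.12, limma adjusted p = 0.0427); its brighter probe, of another accession, gave 0.85 (SE 0.16, adjusted p = 0.088). Of 12 CAR and PXR targets 0 were called by limma (2 higher and 3 lower at an unadjusted p under 0.05), and the median was -0.25. Cyp2b10, the standard CAR target, read 11.69, 10.28 and 8.19 in the control livers and 9.10, 7.98 and 8.93 in the soy-fed livers, which overlapped (log2 change -1.38, limma adjusted p = 0.561). Cyp3a11, the standard PXR target, had a log2 change of 1.28 (adjusted p = 0.127). When a liver was left out, Abcc3 and Tkt lost their call every time, Ephx1 kept it only without control 2 (adjusted p = 0.0469), and Gm10639 (0.0495), Ugdh (0.0428) and Nr1i3 (0.0364) only without control 3. With the slide as a block all 6 lost their call, at an adjusted p of 0.126 for Abcc3, 0.212 for Ephx1, 0.135 for Tkt, 0.111 for Ugdh, 0.118 for Gm10639 and 0.17 for Nr1i3. Their log2 changes in that fit were, in the same order, 0.876, 1.16, 0.832, 1.086, 2.451 and 0.797.

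**Figure D4:**
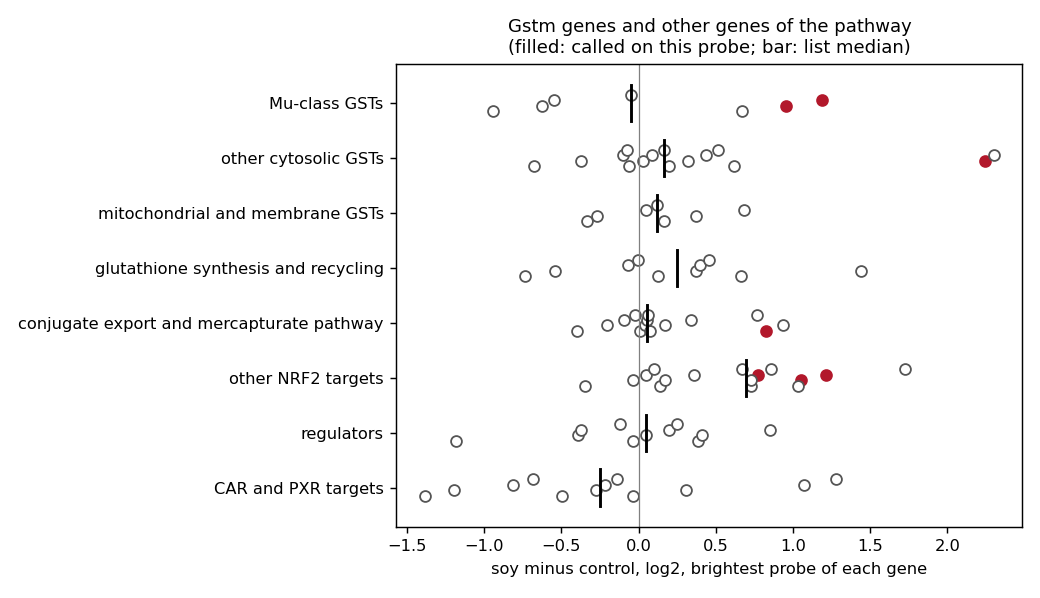
Log2 change of the brightest probe of each gene, soy-fed minus control (horizontal axis, log2 units), for the 7 Gstm genes and 7 lists of genes that act with them (1 row a list; filled points were called higher on that probe, bars are list medians). The medians run from -0.25 for CAR and PXR targets to 0.70 for other NRF2 targets, and the Gstm genes lie on both sides of 0.

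Markers of liver cell types were read from 8 lists, and 0 of the 48 genes on the array were called by limma on any probe. On the brightest probe of each gene, 7 had an unadjusted p under 0.05, beside 6493 of all 56605 probes. All 7 were lower in the soy-fed livers, Cps1 and Pck1 of the hepatocyte list, Col1a1 and Col3a1 of the stellate cell list, and Cela2a, Cpa1 and Prss2 of the pancreas list. Among dimmer probes at an unadjusted limma p under 0.05, those of Csf1r (log2 change 0.43) and Sox9 (0.35) were higher. Those of Ttr (-0.395) and Col1a1 (-0.86) were lower. The hepatocyte markers on the array (8 of 9, all well above background) had a median log2 change of -0.16 and a summed intensity of 2397680, 2503318 and 2412803 in the control livers and 2279054, 2130969 and 2101410 in the soy-fed livers. The pancreas list stood lowest, with a lower soy-fed mean for all 5 genes and a median of -0.51. Of the 5, only Cela2a was above background in every liver. Cpa1, Pnlip and Prss2 were above it in 2 control livers and 0 soy-fed livers. The median and rank of this list therefore rest mostly on values near background. The summed intensity of the pancreas list was 1892, 2604 and 1580 in the control livers and 934, 1142 and 963 in the soy-fed livers. Cela2a, a pancreatic elastase, had a log2 change of -1.21 (limma adjusted p = 0.0724), while Ins2 was above background in none of the 6 livers. The median was 0.23 for Kupffer cell, 0.07 for endothelial, -0.17 for stellate cell, -0.01 for cholangiocyte, -0.09 for adipocyte and 0.50 for red cell and neutrophil markers, and Epcam (cholangiocyte), Adipoq and Plin1 (adipocyte) were above background in no liver. The red cell and neutrophil list, which holds the globin gene Hba-a1, summed to 168712, 125163 and 180319 in the control livers and 138437, 283795 and 165106 in the soy-fed livers, so that soy 2 stood high. The part of cell composition in the Gstm values was not tested.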

How the data were processed

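Total RNA from the livers of 6 mice (3 control, 3 soy-fed) was hybridised by the authors to Agilent 1-colour arrays. The deposited scanner files (Feature Extraction 11.5.1.1) give median spot and background intensity, a processed intensity and marks for saturated, outlier and dim spots; the deposited series table holds the authors' log2 values, no more than 0.065 from the values computed here over the Gstm probes and arrays. Background was removed from the median signals by the normexp method with an offset of 50, control and outlier spots were left out, and values were quantile normalized, log2 transformed and averaged by probe in limma 3.58.1 (R 4.3.3). Groups were compared over all 56605 probes with lmFit and eBayes and Benjamini-Hochberg adjustment, two-sided. Accessions were matched to symbols in the RefSeq table of GRCm38.p6, which named 32994 probes (58.3%). Differences between probes were formed within each array and compared between groups; their absolute size, which also depends on the probes, was not interpreted.

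Groups and replicate numbers came from the labels; nothing says more of how the animals were kept apart, so p-values measure the spread between these samples. The named genes were all Gstm genes; of each pathway list the genes called, or else the 2 with the largest change among those well above background in a group; and the 5 genes most correlated with Gstm1. Members and lists were chosen with earlier results of these data known. The pathway lists covered other cytosolic and membrane transferases, glutathione synthesis, conjugate export, NRF2 targets, regulators, and CAR and PXR targets; the marker lists covered hepatocyte, cholangiocyte, endothelial, Kupffer, stellate, red cell and neutrophil, adipocyte and pancreas. The fit was tested on simulated data. Alternatives covered background correction, starting intensity, scaling, filters, variance model, replicate and slide blocks, and each array left out.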

Additional observations from a re-analysis of the deposited data

How the results depend on the processing

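The main counts were 198 probes, 4 Gstm probes and 6 pathway genes. With an offset of 16 they became 77, 2 and 0, with the processed signal 13138, 8 and 23, with the slide as a block 25, 0 and 0, and with the replicate number as a block 78, 2 and 3. A 75th percentile shift gave 299 probes and 3 Gstm probes, without Gstm1 probe 1, and testing only probes well above background gave 497 probes, 6 Gstm probes (5 higher, 1 lower) and 13 pathway genes; the cause was not tested in any of these. The processed signal and the percentile shift moved the median log2 change of all probes to 0.125 and 0.134, and relative to it every Gstm probe kept its direction. With the processed signal 6 Gstm probes were called higher and 2 lower, Gstm6 probe 1 and Gstm7; with the replicate block Gstm4 and Gstm6 probe 2 stayed called (adjusted p = 0.0487 each, limma). Without 1 array the counts ran from 25 to 203 probes, 0 to 4 Gstm probes and 0 to 4 pathway genes. Gstm5 probe 1 ran from -0.146 without soy 2 to 0.017 without soy 1, and the mean of both probes gave 0.274 for Gstm5 and 0.066 for Gstm6. The deviations of same-numbered samples correlated at 0.103, -0.055 and 0.102 over 32338 probes, so the numbers were not taken to pair them. The differences between Gstm1 and other members kept their direction in the settings run for them, which were no background correction, the processed signal, the 75th percentile shift, the deposited values and each array left out. With the other probe, an alternative chosen after seeing the data, the shift against Gstm6 turned to -0.12 (probe 2 of Gstm6) and that against Gstm4 to 0.007 (probe 2 of Gstm1).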
